A study of Mus musculus with 4 samples.

Results

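Fibrotic tissue in the mouse cortex 7 days after injury was compared with tissue of the same brain slices in which no Col1a1 transcript was counted. The tissue came from WT mice, on a C57BL/6 background and 7 to 21 weeks old unless the methods state otherwise, of both sexes, that received a photothrombotic (PT) injury: Rose Bengal was injected and light through the skull clotted vessels of the primary somatosensory cortex. Both mice of this comparison carried the injury, and the labels give them no transgene. Brains were snap frozen, and tissue at 7 days post injury (dpi), which the methods say came from 2 mice, was laid on a single Visium capture area, a glass square printed with barcoded spots that catch messenger RNA from the tissue above them. Each spot covers a patch that can hold several cells of different types, and each captured molecule is counted once through its unique molecular identifier (UMI). The 2 slices were told apart as the 2 connected pieces of spots over tissue, so n = 2 slices throughout. Each was taken as 1 mouse from the count of mice in the methods, and no label ties a piece to a mouse. The labels give neither the sex nor the exact age of either mouse.

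Spots were chosen by their own Col1a1 counts, so every value of Col1a1 below describes the choice and was not tested. The other genes were counted in the same spots but did not enter the choice. A spot with at least 1000 UMIs was called fibrotic when it held 5 or more Col1a1 UMIs per 10000 UMIs, and Col1a1-free when it held 0 Col1a1 UMIs. Of the 1925 spots over tissue at 7 dpi, 1 fell below 1000 UMIs, 504 were fibrotic (112 in slice 1 and 392 in slice 2), 640 were Col1a1-free (412 and 228) and 780 lay between the classes (453 and 327). These are part of 9340 spots over tissue in the 4 capture areas of the series, which cover rest and 2, 7 and 21 dpi, with Cthrc1(creER); R26(DTA) mice on one area at 21 dpi. Barcodes mark fixed positions of the printed array, so 2587 of them recurred in more than one area without being the same spot.

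Col1a1 encodes the alpha 1 chain of collagen I, the main fibrillar collagen of scars, which in the brain is made chiefly by fibroblasts of the meninges and of larger vessels. After injury these cells can multiply, enter the lesion and become myofibroblasts, contractile and matrix-secreting cells that respond to transforming growth factor beta (TGFβ). Macrophages that take up debris gather beside them, and astrocytes, neurons and oligodendrocytes lie outside the scar in the neural tissue.

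The fibrotic spots formed a different geometry in the 2 slices. They made up 11.5% of the spots of slice 1 (95% exact binomial interval 9.53 to 13.6) and 41.4% of slice 2 (38.2 to 44.6), intervals that cover counting error over spots only. In slice 1 they fell into 21 connected patches, the largest with 45 spots (40.2% of the fibrotic spots), and 77 of the 112 (68.8%) lay at the edge of the tissue or array. In slice 2 a single patch of 376 spots held 95.9% of the fibrotic spots, and 72 of 392 (18.4%) were edge spots. Edge spots made up 16.7% and 15.4% of the Col1a1-free spots. For scale, fibrotic spots were 13% and 24.6% of spots in the 2 WT slices at 21 dpi, and 1.55% and 0.296% in the 2 slices of the area that held rest and 2 dpi. Of the 21 spots behind the 1.55%, 12 held 1 Col1a1 UMI. With at least 2000 UMIs per spot that share was 0.421% (4 of 949).

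**Figure D1:**
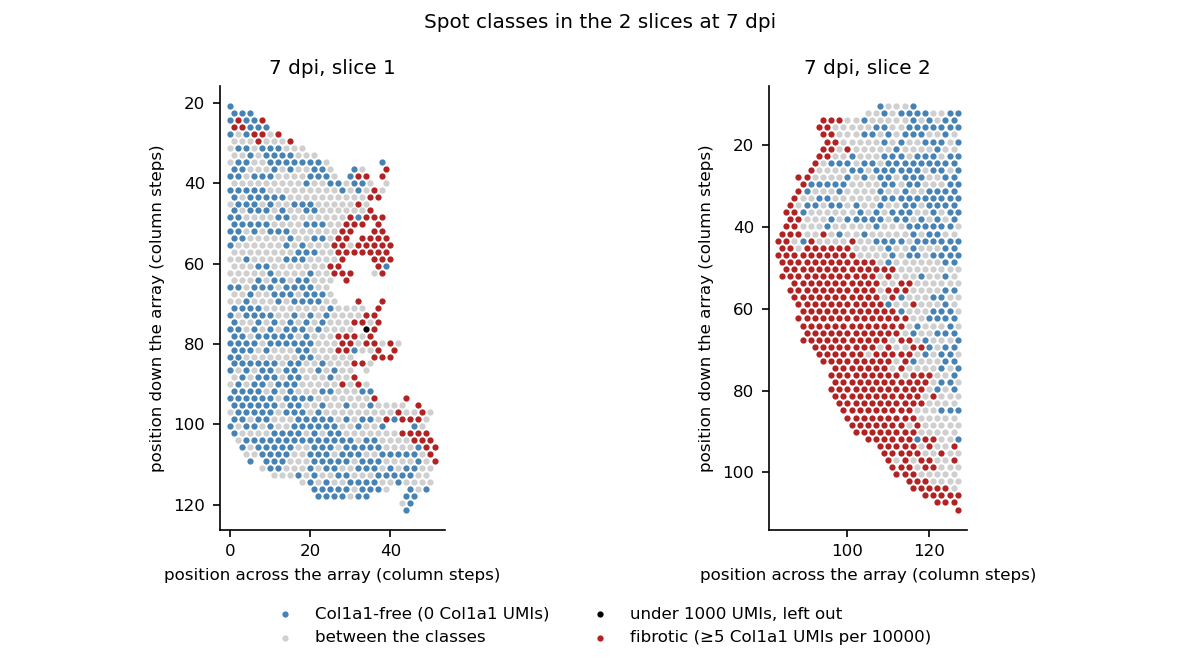
Spots over tissue in the 2 slices at 7 dpi, at their positions on the capture array in column steps on both axes (neighbours in a line lie 2 apart), coloured by Col1a1 class. Red fibrotic spots form 1 large patch in slice 2 (376 of 392 fibrotic spots). In slice 1 they form several smaller ones, along its right border and also at its upper left. Blue Col1a1-free spots lie a median of 8 (slice 1) and 6 (slice 2) array steps from a fibrotic spot. Grey spots lie between the classes and the single black spot held under 1000 UMIs.

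Col1a1 (chr11:94936224-94953042 on the plus strand of GRCm38, GENCODE M21) had these values in the spots it chose. Fibrotic spots held a median of 6.5 Col1a1 UMIs in slice 1 and 18 in slice 2, and their summed level was 14.4 and 30.6 per 10000. The highest spot of slice 1 reached 87.8 per 10000, and that of slice 2 reached 380. At the threshold, the lowest fibrotic spots held 5.01 (2 of 3990 UMIs, slice 1) and 5.03 per 10000 (9 of 17897, slice 2), and the highest spots below it held 4.95 (4 of 8074) and 4.94 (9 of 18214). Of the fibrotic spots, 19 in slice 1 and 1 in slice 2 rested on 1 or 2 Col1a1 UMIs.

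The classes differed in depth. Median UMIs per spot were 4924 and 9207 in the fibrotic spots of slices 1 and 2, against 16167 and 17362 in the Col1a1-free spots, and median genes detected were 2394 and 3682 against 5251 and 5299. Mitochondrial transcripts took 6.41% and 7.34% of the UMIs of fibrotic spots and 9.66% and 11.6% of those of Col1a1-free spots. The 4 sums by class and slice compared here, all from a single capture area, held 846868 and 4393668 UMIs (fibrotic) and 7105761 and 3904275 UMIs (Col1a1-free).

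Bone transcripts marked part of the fibrotic area in slice 2. Ibsp and Bglap, which encode mineral-binding proteins of bone, gave 354 UMIs over 95 of the 392 fibrotic spots there, 132 of them in 1 spot, and those 95 spots held 5994 of the 13445 Col1a1 UMIs of the class. In slice 1 the fibrotic spots held 3 such UMIs over 2 spots, and the Col1a1-free spots held 4 UMIs over 4 spots in slice 1 and 3 UMIs over 3 spots in slice 2. Comparisons were therefore repeated without every spot that held either transcript. That left 3382 genes higher and 3187 lower, against 3144 and 2966 with these spots kept.

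Genes were tested on the 4 sums with edgeR's quasi-likelihood test, with slice as a block, and p values were adjusted by Benjamini-Hochberg over all 13633 genes that passed the count filter, with 0.05 as the threshold. Levels are UMIs per 1000000 (CPM) after edgeR's TMM scaling, given for slice 1 and then slice 2, and fold changes are fibrotic over Col1a1-free on the log2 scale with their standard error. Of the genes tested, 3144 (23.1%) were higher and 2966 (21.8%) were lower in fibrotic spots, and 6101 of these 6110 moved the same way in both slices. The changes reached further upward: 845 called genes were at least 4-fold higher and 169 at least 4-fold lower, although the median log2 fold change of all genes was 0.01. Classes without overlap were common too. Both fibrotic values lay above both Col1a1-free values for 4944 of the 13633 genes and below them for 4867. Because so many genes passed, counts for a group of genes are read here beside those shares, and the groups were picked with earlier results of these data known. In summed spots, fewer cells of a type and less RNA per cell cannot be told apart.

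Edge position and depth, which differ between the classes, were held fixed in 3 further comparisons. Interior spots alone (35 and 320 fibrotic, 343 and 193 Col1a1-free) gave 2646 genes higher and 2705 lower of 13236, and edge spots alone gave 1414 and 1147 of 10101. With every spot thinned to 1000 UMIs, 782 were higher and 733 lower of the 6225 genes that still passed the filter. The median log2 fold change of the collagens was 3.42 in interior spots (21 tested), 4.04 in edge spots (19) and 3.56 after thinning (14), and that of 10 pan-neuronal genes was -1.64, -1.61 and -1.23. Of the genes called higher, 2560, 1387 and 768 were among the 3144 called with all spots.

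Collagens and most of the genes that assemble them were higher in fibrotic spots. All 22 collagen genes listed besides Col1a1 were higher, with a median log2 fold change of 3.65 beside 0.01 for all genes. Col3a1, which encodes the collagen III that forms mixed fibrils with collagen I, had 1999 and 3339 CPM in the fibrotic sums and 33.6 and 38.8 CPM in the Col1a1-free sums (log2 fold change 6.15 ± 0.16, adjusted p = 1.67e-07). Both fibrotic values lay far above both Col1a1-free values, and slice 2 was the higher. Col1a2, the partner chain of Col1a1, had 1184 and 2337 CPM against 28.2 and 31.6 CPM (log2 fold change 5.79 ± 0.19, adjusted p = 2.8e-07). Col6a3 of the beaded collagen VI filaments (5.54) and the short-chain collagen Col8a1 (5.05) followed, and the basement membrane chains Col4a1 (3.37) and Col4a2 (2.98) rose less. The Col1a1-free sums of Col8a1 alone (68 and 8 UMIs) would not have passed the count filter, so its call is partly set by it.

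Of 21 genes for collagen processing and crosslinking tested, out of 23 listed, 18 were higher and 1 was lower (median 2.46). Lox, a lysyl oxidase that crosslinks collagen and elastin, had 112 and 155 CPM against 3.75 and 1.00 CPM (log2 fold change 5.60 ± 0.34, adjusted p = 5.58e-06). Its Col1a1-free sums alone (28 and 4 UMIs) would not have passed the count filter, so its call is partly set by the filter. The collagen chaperone Serpinh1 (4.18) and Pcolce, an enhancer of procollagen cleavage (4.13), were higher too, and Pcolce2 was the lower member (-1.38). Small leucine-rich proteoglycans, which decorate collagen fibrils, were higher in 7 of 8 tested members of 9 (median 4.05), led by Lum (5.09) and Dcn (4.73). Among 16 elastic fibre genes 15 were higher (median 3.46), and elastin itself, Eln, had 190.2 and 511 CPM against 6.30 and 7.01 CPM (log2 fold change 5.53 ± 0.25, adjusted p = 1.44e-06).

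Matricellular and protease genes followed the collagens. Of 16 fibronectin and matricellular genes tested, 14 were higher and 1 was lower, with a median of 3.17. Postn, whose product periostin links collagen to other matrix proteins, had 195 and 249 CPM against 4.69 and 2.76 CPM (log2 fold change 5.79 ± 0.23, adjusted p = 7.05e-07). Spp1 (osteopontin), which is secreted by both macrophages and stromal cells, held the most UMIs of the list, at 14756 and 14274 CPM against 905 and 1263 CPM (log2 fold change 3.76 ± 0.13, adjusted p = 2.8e-07). Laminins, nidogens and perlecan of basement membranes were higher in 10 of 13 members, with none lower (median 2.15). Of 22 matrix proteases and inhibitors 17 were higher and 2 lower (median 2.63).

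Among called genes with at least 50 CPM in the higher class, the largest change was that of Mmp3, stromelysin, which cleaves matrix proteins and activates other proteases. It had 77.1 and 33.6 CPM against 0.804 and 0.250 CPM (log2 fold change 6.61 ± 0.36, adjusted p = 3.66e-06), but the Col1a1-free sums rest on 6 and 1 UMIs, and the plain ratio of summed counts was 62.1 with a 95% counting interval of 29.6 to 156. Mmp3 passed the count filter only through its fibrotic sums, so its call is partly set by the filter. Mmp13, a collagenase that cuts fibrillar collagen, had 175 and 307 CPM against 4.29 and 7.51 CPM (log2 fold change 5.34 ± 0.17, adjusted p = 2.8e-07). Mmp14 (4.57) and Mmp2 (4.10), a membrane collagenase and the gelatinase it activates, were higher together with the protease inhibitor Timp1 (3.90). In contrast Mmp17, a membrane-bound protease also expressed by neurons, was lower (-2.28), and so was the inhibitor Timp4 (-0.79).

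Promoter sequence is printed for 4 of these genes, a pair of proteases and a pair of matrix genes that moved together, to show what lies before their starts. Each is the 250 bases before the gene's start in RefSeq on build GRCm38.p6, on the plus strand. Mmp3 (chr9:7445572-7445821) and Mmp13 (chr9:7272264-7272513) lie on the same chromosome, Col3a1 is at chr1:45311288-45311537 and Postn at chr3:54360857-54361106. Capitals mark matches, on either strand, to AP-1 (TGANTCA), TEAD (GGAATG) and the TATA box (TATAAA).
Mmp3: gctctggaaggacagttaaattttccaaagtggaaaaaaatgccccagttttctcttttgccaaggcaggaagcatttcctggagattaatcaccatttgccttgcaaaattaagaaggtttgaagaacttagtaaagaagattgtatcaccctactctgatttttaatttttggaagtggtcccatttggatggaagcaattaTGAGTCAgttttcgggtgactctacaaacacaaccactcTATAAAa
Mmp13: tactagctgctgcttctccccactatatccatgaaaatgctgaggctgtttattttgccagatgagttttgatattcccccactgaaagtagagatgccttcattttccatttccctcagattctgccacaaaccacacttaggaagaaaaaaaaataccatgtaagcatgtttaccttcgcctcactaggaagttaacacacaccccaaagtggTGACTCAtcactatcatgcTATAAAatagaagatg
Col3a1: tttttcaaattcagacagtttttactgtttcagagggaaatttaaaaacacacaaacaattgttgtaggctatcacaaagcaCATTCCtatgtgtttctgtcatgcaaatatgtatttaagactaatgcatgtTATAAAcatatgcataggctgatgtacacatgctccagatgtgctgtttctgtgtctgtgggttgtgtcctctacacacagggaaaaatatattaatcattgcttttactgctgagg
Postn: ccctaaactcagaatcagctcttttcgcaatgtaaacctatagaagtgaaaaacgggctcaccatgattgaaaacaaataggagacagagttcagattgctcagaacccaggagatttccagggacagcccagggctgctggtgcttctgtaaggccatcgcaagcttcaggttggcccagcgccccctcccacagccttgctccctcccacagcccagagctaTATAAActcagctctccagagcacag
Both protease promoters hold an AP-1 match, from 46 to 40 bases before the start in Mmp3 and from 35 to 29 in Mmp13. The Col3a1 window holds a TEAD match from 168 to 163 bases before the start. All 4 hold the letters of the TATA box, but at different distances from the start. They lie from 7 to 2 bases before it in Mmp3, 16 to 11 in Mmp13, 26 to 21 in Postn and 117 to 112 in Col3a1. Over all 32841 mouse promoter windows of this length, 6.75% held the AP-1 letters, 12.6% the TEAD letters and 12.4% the TATA box. Among the 12 genes with the largest rise, 8 had windows (11 in all), of which 3 held AP-1, 2 TEAD and 4 the TATA box. Among the 12 with the largest fall, 7 had windows (9 in all), of which 3 held AP-1, 1 TEAD and 0 the TATA box. A match shows only that the letters are there.

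Myofibroblast markers used by the study, Cthrc1, Acta2, Lrrc15, Postn and Fn1, were all higher. The study names them as markers of this cell state, and the group was taken up here with earlier results of these data known. Acta2, smooth muscle actin, had 114 and 123 CPM in the fibrotic sums and 10.7 and 9.77 CPM in the Col1a1-free sums (log2 fold change 3.52 ± 0.18, adjusted p = 2.12e-06). Cthrc1, a secreted protein of matrix-producing fibroblasts, had 122 and 111 CPM against 17.8 and 10.8 CPM (log2 fold change 3.04 ± 0.19, adjusted p = 6.47e-06), and fibronectin, Fn1, had 1151 and 1359 CPM against 117 and 140.0 CPM (log2 fold change 3.29 ± 0.11, adjusted p = 2.8e-07). In each of the 3 the fibrotic values of the slices lay close together. The classes did not overlap, which also held upward for 4944 of the 13633 genes tested. Lrrc15, a membrane protein of TGFβ-responsive fibroblasts, was sparse, with 9 and 130 UMIs in the fibrotic sums and 2 and 0 in the Col1a1-free sums, a ratio of summed counts of 146 (95% counting interval 39.7 to 1218) that rests mostly on slice 2. Lrrc15 passed the count filter only through its fibrotic sums, so the count of 5 markers higher is partly set by the filter.

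The TGFβ pathway moved by less. Of 24 members tested, out of 25 listed, 18 were higher and none was lower, with a median of 1.29. The ligands Tgfb1 (1.76) and Tgfb3 (2.42) and the receptor Tgfbr2 (1.99) were higher, and the signal transducer Smad3 (-0.50) did not pass. With only Col1a1-free spots within 3 steps of a fibrotic spot, 8 of 22 members were higher (median 0.54) and Tgfb1 did not pass (0.38), and after thinning to 1000 UMIs 5 of 13 were. Among 6 PDGF genes 5 were higher, with Pdgfrb, the receptor of pericytes and fibroblasts, at 2.74 and Pdgfra, which oligodendrocyte precursors carry as well, at 1.37. Of the PDGF genes 2 of 4 tested were higher in edge spots, and 2 of 4 against Col1a1-free spots within 3 steps. After thinning 1 of 4 was, and Pdgfra did not pass. In the insulin-like growth factor axis 9 of 11 members were higher (median 1.83). H19, a noncoding RNA imprinted together with Igf2, had 216 and 558 CPM against 5.90 and 5.51 CPM (log2 fold change 5.87 ± 0.27, adjusted p = 1.44e-06), and Igf2 rose by 3.25.

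**Figure D2:**
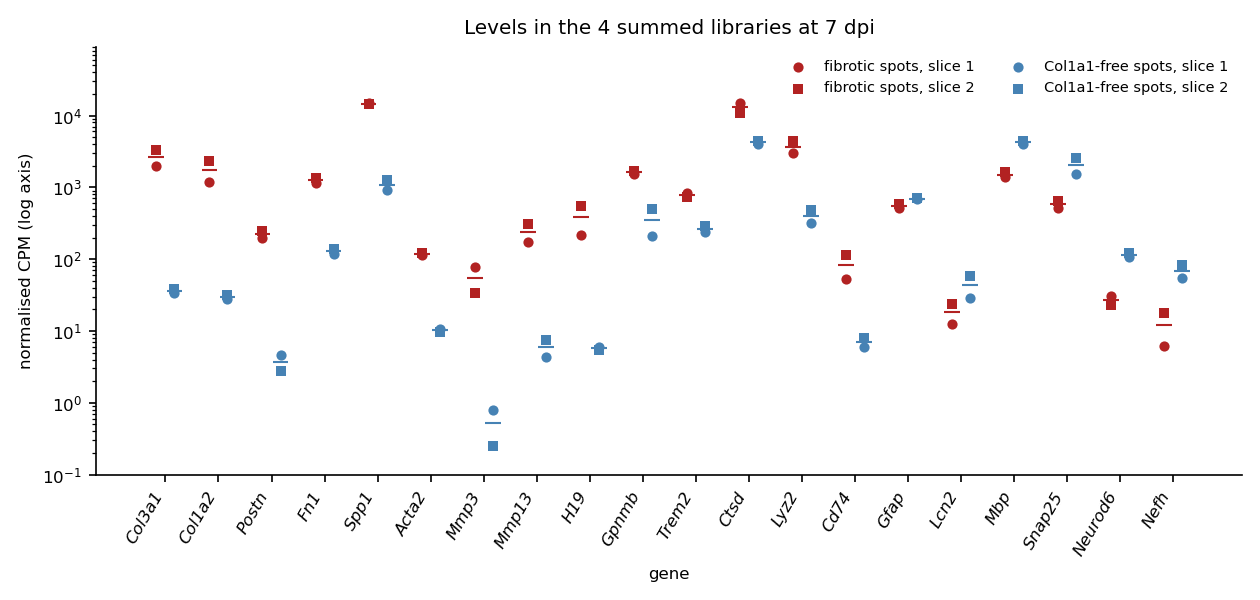
Normalised CPM (log axis) of 20 genes in the 4 sums at 7 dpi, with fibrotic spots in red, Col1a1-free spots in blue, slice 1 as circles, slice 2 as squares and the mean of each class as a bar. Matrix and macrophage genes such as Col3a1 (1999 and 3339 against 33.6 and 38.8 CPM) and Spp1 are separated upward, Mbp and Snap25 downward, and Gfap differs little.

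Fibroblast and border-cell markers were checked beside the label. Of 8 fibroblast markers 7 were tested and all 7 were higher (median 5.09). The list summed to 41.0 and 68.2 UMIs per 10000 in fibrotic spots and 1.38 and 1.31 in Col1a1-free spots. All 7 belong to the matrix or PDGF lists counted above, 3 of them as collagens, so they add no separate support. The marker Dpt, with 0 and 4 UMIs in the fibrotic sums, fell under the filter. All 9 leptomeningeal markers were higher (median 2.44), among them the retinoic acid enzyme Aldh1a2 (3.22) and the retinoid carrier Crabp2 (4.80), and the list summed to 15.4 and 20.6 per 10000 against 7.33 and 7.61. The Col1a1-free sums of Aldh1a2 and Crabp2 alone would not have passed the count filter, so the count of 9 is partly set by it. In interior spots alone 6 of the 9 were higher (median 1.80). Most of the sum is Ptgds, a prostaglandin synthase, whose log2 fold change of 1.27 became -0.51 in interior spots, and in slice 1 the sum came from spots near the threshold: the list reached 25.9 per 10000 at 5 to 10 Col1a1 UMIs per 10000 (23.9 of it Ptgds), but 4.23 at 10 to 20 and 4.84 at 20 or more, below the Col1a1-free level. Of 8 markers of dural and skull cells 5 of the 6 tested were higher, including the osteoclast enzyme Acp5 (3.66). Without the spots that held Ibsp or Bglap 3 of 5 tested members were higher, as in interior spots alone. The summed level of that list was 4.24 and 7.48 against 0.680 and 0.845 per 10000.

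Vessel markers rose less evenly. Of 10 pericyte and smooth muscle markers tested, 6 were higher, with the contractile gene Tagln at 2.81 and the pericyte marker Rgs5 at 1.21, while Kcnj8 and Abcc9, channel subunits of brain pericytes, did not pass (0.49 and 0.56). Among 12 endothelial markers 7 were higher and 1 was lower. The junction genes Cdh5 (2.55) and Cldn5 (1.02) were higher, whereas Mfsd2a, a lipid transporter of the blood-brain barrier, was lower (-1.18). Cldn5 did not pass after thinning to 1000 UMIs, and Mfsd2a did not pass in edge spots or with DESeq2. Of the endothelial markers 1 of 6 tested was higher after thinning and 4 of 10 in edge spots, with 0 lower in either.

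Macrophage transcripts were abundant in fibrotic spots. The scar-associated macrophage (SAM) genes that the study scores, a list published before it, are Trem2, Cd9, Spp1, Gpnmb, Fabp5 and Cd63. They were all higher, summing to 195 and 197 UMIs per 10000 against 25.4 and 34.1 in Col1a1-free spots. Gpnmb, a glycoprotein of lipid-laden macrophages, had 1535 and 1699.8 CPM in the fibrotic sums and 209 and 493 CPM in the Col1a1-free sums (log2 fold change 2.32 ± 0.21, adjusted p = 3.88e-05). Trem2, a lipid-sensing receptor of microglia and macrophages, had 824 and 743 CPM against 236 and 289 CPM (log2 fold change 1.58 ± 0.13, adjusted p = 2.1e-05). Both genes were thus plentiful in Col1a1-free spots as well, and their folds were a fraction of that of Spp1. The other 3 rose by 1.73 (Cd63), 1.54 (Fabp5) and 1.16 (Cd9).

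All 19 lysosome genes were higher (median 1.65), and the list took 361 and 312 UMIs per 10000 against 114 and 128. Ctsd, the protease cathepsin D, had 15152 and 10841 CPM against 4053 and 4387 CPM (log2 fold change 1.60 ± 0.13, adjusted p = 1.66e-05). The collagen-degrading cathepsin Ctsk, typical of osteoclasts and fibroblasts, rose furthest of the list (4.06). Of 11 lipid efflux and storage genes 9 were higher and 1 was lower (median 1.47), with the lipid droplet coat gene Plin2 at 2.25 and Apoe at 1.29. Complement genes were higher in 12 of 13 members (median 2.21), among them C1qa (1.62) and the factor B gene Cfb (3.35). The Col1a1-free sums of Cfb alone would not have passed the count filter, so the count of 12 is partly set by it.

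Markers of myeloid cells of different origin rose by different amounts. Of 9 markers of monocytes and monocyte-derived macrophages 8 were higher (median 3.61), and Lyz2, lysozyme, had 2980.1 and 4416 CPM against 315 and 479.7 CPM (log2 fold change 3.22 ± 0.10, adjusted p = 2.8e-07). Ccr2, the receptor that draws monocytes to Ccl2, had 29.8 and 11.4 CPM against 2.01 and 0.250 CPM (log2 fold change 4.17 ± 0.47, adjusted p = 1.14e-04). It passed the count filter only through its fibrotic sums, so its call is partly set by the filter. Border-associated macrophage markers were higher in 7 of 8 tested members (median 3.03), with the mannose receptor Mrc1 at 3.26. The Col1a1-free sums of Mrc1 alone would not have passed the filter either, so the count of 7 is partly set by it. Homeostatic microglia markers were higher in 7 of 9, with a smaller median of 0.88, and the receptor P2ry12 did not pass (0.35). The differences between these medians were not tested.

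Signals that attract and activate such cells were higher too. Of 14 monocyte-attracting chemokines and receptors 13 were higher (median 2.14), with Ccl2 at 3.34 and Ccl7 at 4.21, and Cx3cl1, made by neurons, was the lower one (-1.69). The Col1a1-free sums of Ccl7 and Ccr2 alone would not have passed the count filter, so the count of 13 is partly set by it. After thinning to 1000 UMIs 2 of 7 tested members were higher and 1 was lower. Il1rn, the interleukin-1 receptor antagonist, was among the largest changes, at 60.9 and 80.3 CPM against 1.88 and 2.00 CPM (log2 fold change 5.13 ± 0.25, adjusted p = 2.08e-06). Its Col1a1-free sums alone would not have passed the count filter, so its call is partly set by the filter. All 10 genes of the MHC class I pathway (median 1.95) and all 17 interferon-stimulated genes (median 1.99) were higher, and 5 of 6 MHC class II genes tested were higher, with the invariant chain Cd74 at 53.5 and 114 CPM against 5.90 and 8.02 CPM. Neutrophil markers were higher in all 5 tested of 8 listed, with S100a8 at 4.54, while Ly6g had 0 UMIs in all 4 sums. S100a8 and S100a9 were so sparse in Col1a1-free spots that they passed the count filter through their fibrotic sums. The count of 5 is therefore partly set by the filter. In interior spots 4 of 4 tested members were higher, within 3 steps 2 of 3, and in edge spots 1 of 2. After thinning to 1000 UMIs 0 members could be tested. Lymphocyte markers were scarce: Cd3e, which defines T cells, had 0 UMIs in all 4 sums, and 1 of 10 T cell markers and 2 of 10 B cell markers passed the filter.

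Genes of the cell cycle were higher in 21 of 27 members, with none lower (median 1.42). Mki67, expressed in dividing cells, rose by 2.01, Top2a by 1.60, and Cdkn1a, an inhibitor of the cycle that counts in the same list, by 2.53. In interior spots 19 of 26 tested members of the list were higher. In edge spots alone 5 of 18 were (median 1.07), and Mki67 and Top2a did not pass there. After thinning to 1000 UMIs 4 of 9 were higher (median 1.33). Of 12 hypoxia-inducible genes 3 were higher and 2 lower (median 0.03), shares close to those of all genes tested. Hmox1, a haem-degrading enzyme that macrophages also use, was among them (2.17) but did not pass with DESeq2 or against Col1a1-free spots within 3 steps. Of 14 oxidative phosphorylation genes 11 were lower and none was higher (median -0.55). In interior spots 11 were lower too, but in edge spots alone 2 of the 14 were (median -0.40). Against Col1a1-free spots within 3 steps 5 were lower (-0.31), and after thinning to 1000 UMIs 6 were (-0.47). The mitochondrial share of UMIs was lower in fibrotic spots as well.

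**Figure D3:**
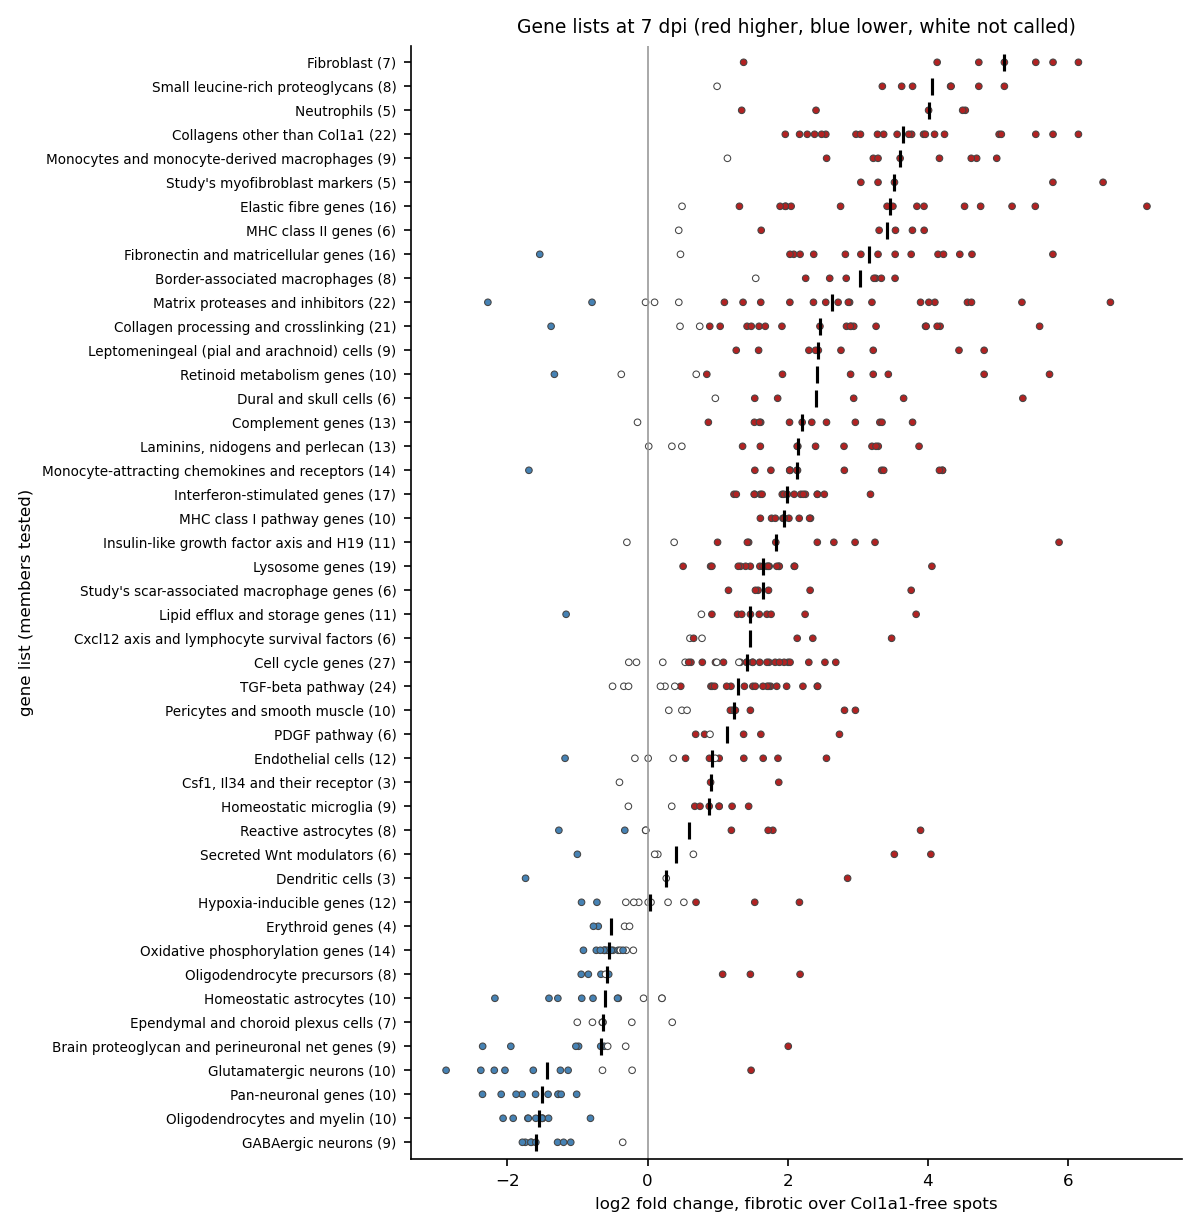
Log2 fold changes of fibrotic over Col1a1-free spots for every tested member of the gene lists with at least 3 tested members, 1 line per list in order of its median (black bar). Red points were higher, blue points lower and white points not past the threshold: matrix, fibroblast and macrophage lists lie to the right (22 of 22 collagens higher), and neuronal, myelin and homeostatic astrocyte lists to the left.

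Neural transcripts were lower in fibrotic spots. All 10 pan-neuronal genes were lower (median -1.51), and Snap25, a protein of synaptic vesicle release, had 518 and 638 CPM in the fibrotic sums and 1546 and 2527 CPM in the Col1a1-free sums (log2 fold change -1.79 ± 0.12, adjusted p = 8.47e-06). Glutamatergic markers were lower in 7 of 10 members and higher in 1 (Foxp2, 1.48), and GABAergic markers were lower in 8 of 9 tested. The Foxp2 value rested on slice 2: it was 0.40 without that slice, and the call was lost without the slice block, after thinning and in edge spots. Neurod6, a transcription factor of cortical excitatory neurons, had 31.1 and 23.2 CPM against 108 and 121 CPM (log2 fold change -2.19 ± 0.19, adjusted p = 2.45e-05). Nefh, the heavy neurofilament of large axons, had 6.22 and 17.9 CPM against 54.6 and 82.2 CPM (log2 fold change -2.36 ± 0.22, adjusted p = 3.99e-05). Every fibrotic value named here lay below both Col1a1-free values, as it did for 4867 of the 13633 genes tested, and none was at 0.

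Among the 12 genes with the largest fall were also Fam163b (-2.61), the small GTPase Diras2 (-2.50), the actin regulator Wipf3 (-2.48), the perineuronal net linker Hapln4 (-2.35), the glycosyltransferase Galnt9 (-2.24), the calcium-binding Cabp7 (-2.18), Nrip3 (-2.15) and the neuronal transporter Slc6a17 (-2.15). Rgs14, a signalling regulator of neurons (log2 fold change -2.57 ± 0.41, adjusted p = 7.82e-04), belonged to them mainly through slice 2, with 14.9 and 12.3 CPM against 20.9 and 103 CPM, and its log2 fold change in slice 1 alone was -0.49. The largest falls (-2.61 to -2.15) were smaller than the largest rises (5.05 to 6.61).

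Myelin genes fell as a group: all 10 oligodendrocyte markers were lower (median -1.55), and Mbp, myelin basic protein, had 1378 and 1615 CPM against 4075 and 4392 CPM (log2 fold change -1.50 ± 0.09, adjusted p = 5.08e-06). Markers of homeostatic astrocytes were lower in 7 of 10 members (median -0.60), for example the glutamate transporter Slc1a2 (-1.28). Reactive astrocyte markers were split, with 4 of 8 higher and 2 lower. Gfap, the filament protein by which reactive astrocytes are recognised, had 522 and 587 CPM in the fibrotic sums and 686 and 703 CPM in the Col1a1-free sums (log2 fold change -0.32 ± 0.10, adjusted p = 0.0303), and Lcn2, a secreted lipocalin, had 12.4 and 23.9 CPM against 28.8 and 58.1 CPM (log2 fold change -1.27 ± 0.20, adjusted p = 7.29e-04). The members that were higher, Vim (1.79), Cd44 (1.72), Aspg (1.20) and Timp1 (3.90), include genes that fibroblasts and macrophages express as well. Among tissue-edge spots alone, 1 of 10 homeostatic astrocyte markers was lower and 1 higher (median 0.00), Slc1a2 (-0.58) and Lcn2 (-1.04) did not pass, and the Gfap value turned to 0.24. Gfap also did not pass in the fit of all slices of 7 and 21 dpi, without the slice block, after thinning or with DESeq2, and Lcn2 did not pass after thinning.

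Much of this contrast depended on where the Col1a1-free spots lay. Their median distance to a fibrotic spot was 8 array steps in slice 1 and 6 in slice 2, so the comparison was repeated with the 70 and 58 Col1a1-free spots that lay within 3 steps. Then 1417 genes were higher and 1490 lower of 10218 tested. Matrix genes kept a large difference, with a collagen median of 2.76 (19 tested) in place of 3.65 (22 tested) and Col3a1 at 4.55. Macrophage genes differed by less: the SAM median was 0.78 with Spp1 at 1.84, Gpnmb at 0.77 and Trem2 at 0.25, which no longer passed. The lysosome median fell from 1.65 to 0.59, that of homeostatic microglia from 0.88 to 0.12 with 1 of 9 members called, and Mmp12, the macrophage elastase, turned from 1.62 to -0.40. Cell cycle genes went from a median of 1.42 (27 tested) to 0.33 (5 of 20 tested members called). Pan-neuronal genes stayed lower in 10 of 10 members (median -1.13).

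The spots between the classes, and grades within the fibrotic class, allow these groups to be followed along the Col1a1 scale. Spots were divided into 5 classes (0, above 0 and under 5, 5 to 10, 10 to 20, and 20 or more Col1a1 UMIs per 10000), which held 412, 453, 58, 33 and 21 spots in slice 1 and 228, 327, 92, 104 and 196 in slice 2. These summed levels are a description with no test. Spots with Ibsp or Bglap were kept here, and in slice 2 they lay mostly in the highest class. Ibsp was 0.795 UMIs per 10000 there at 20 or more against 0.0769 at 10 to 20, and Bglap was 0.654 against 0.162. Collagens other than Col1a1 went from 2.70 through 5.69, 33.4 and 59.3 to 88.6 UMIs per 10000 in slice 1, and from 2.94 through 6.37, 26.2 and 58.6 to 128 in slice 2. Myofibroblast markers were ordered in the same way, from 1.58 to 23.9 in slice 1 and from 1.67 to 26.5 in slice 2. So were the markers of monocytes and their macrophages, from 6.10 to 57.5 and from 9.24 to 90.2, but that list shares Fn1 with the myofibroblast markers. At 5 to 10, 10 to 20 and 20 or more in slice 1 the list held 49.1, 52.4 and 57.5. Of these Fn1 made up 8.41, 11.8 and 16.9, and Lyz2 was 28.2, 30.0 and 25.3, so the rise among the fibrotic classes of slice 1 lay in Fn1 and not in Lyz2.

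SAM genes did not follow that order to its end. In slice 1 their summed level was highest at 5 to 10 Col1a1 UMIs per 10000 (211) and lower at 20 or more (149.8), and in slice 2 it was 109 at 5 to 10, 225 at 10 to 20 and 222 at 20 or more. Spp1 made up most of these sums, with 154 of the 211 in slice 1 and 161 of the 225 in slice 2. The other members varied, as Cd63 was highest at 10 to 20 in slice 1 (12.3) and at 20 or more in slice 2 (13.3). Homeostatic microglia markers had their highest level in the same classes, 12.0 at 5 to 10 in slice 1 and 11.2 at 10 to 20 in slice 2. Pan-neuronal genes went from 46.4 to 12.7 in slice 1 and from 64.0 to 13.3 in slice 2. Myelin genes went from 125 to 43.8 in slice 1 and from 115 to 48.8 in slice 2 by the class of 5 to 10.

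**Figure D4:**
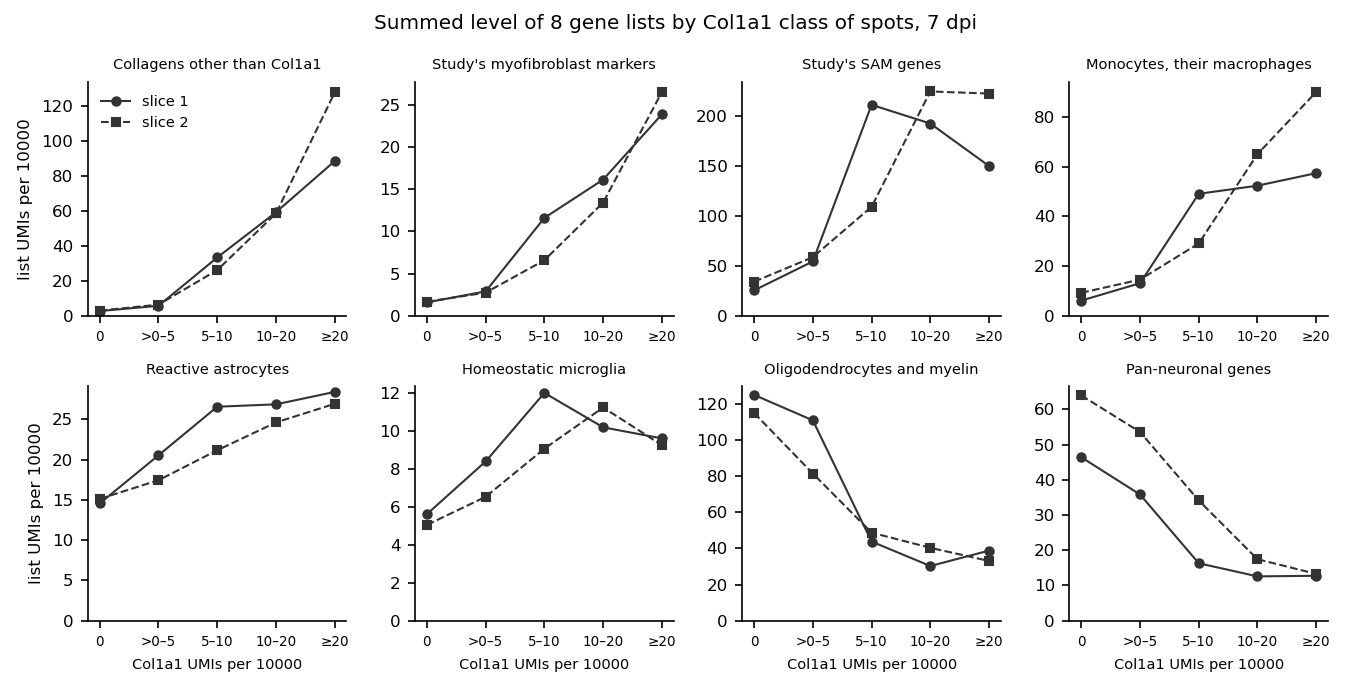
Summed UMIs per 10000 of 8 gene lists in 5 classes of spots by their Col1a1 UMIs per 10000 at 7 dpi, with slice 1 as circles on a solid line and slice 2 as squares on a dashed line. Collagens reach 88.6 and 128 in the highest class, the study's SAM genes peak at 211 (slice 1) and 225 (slice 2) in the middle classes, and myelin and pan-neuronal genes are lowest in the 2 highest classes.

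Within the fibrotic spots alone, genes were ranked by how their UMIs per 10000 followed those of Col1a1, with Spearman's rho over the 112 spots of slice 1 and the 392 of slice 2. Spots of a slice share a library and neighbours share cells, so these values describe the spots and carry no p. The 95 fibrotic spots of slice 2 with Ibsp or Bglap, which held 5994 of its 13445 Col1a1 UMIs, were kept. The ranking was not repeated without them. Of 1178 genes found in at least 50% of the fibrotic spots of both slices, Sparc, a collagen-binding matrix protein, was highest (0.68 and 0.85), followed by Col1a2 (0.63 and 0.90), Col3a1 (0.60 and 0.76), Serpinh1 (0.56 and 0.70) and the proteoglycan Bgn (0.53 and 0.76). The protease inhibitor Timp1 (0.49 and 0.50), Mgp (0.48 and 0.67), which blocks calcification, and Mmp14 (0.53 and 0.48) came next. The lowest values belonged to Ppia (-0.37 and -0.37), Ckb (-0.37 and -0.38) and Snap25 (-0.33 and -0.35). Depth itself had a rho with Col1a1 per 10000 of 0.15 and -0.05.

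The same contrast in the 2 WT slices at 21 dpi was set beside that at 7 dpi. Each day was a capture area of its own, so day and area cannot be told apart. In a single fit of the 8 sums, with 14146 genes tested, the fibrotic contrast differed between the days for 579 genes: 121 (0.855%) had a larger log2 fold change at 7 dpi and 458 (3.24%) a larger one at 21 dpi. These counts moved with single slices: they came to 10 and 130 when slice 1 of 7 dpi was left out, to 0 and 55 when slice 2 of 7 dpi was (with 2023 genes at an unadjusted p under 0.05), and for the 21 dpi slices to 185 and 593 for slice 1 and 21 and 269 for slice 2. Among tissue-edge spots alone edgeR called 0 genes in either direction, with 362 at an unadjusted p under 0.05. Single genes are therefore given with their levels.

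Genes with the larger contrast at 7 dpi included 3 matrix genes among the 8 largest differences. Cthrc1 had 118 and 112 CPM in fibrotic spots at 7 dpi and 22.6 and 17.6 CPM at 21 dpi, while its Col1a1-free levels went from 18.3 and 10.9 CPM at 7 dpi to 11.5 and 11.8 CPM at 21 dpi (3.0 at 7 dpi and 0.79 at 21 dpi, difference 2.21 ± 0.32, adjusted p = 0.00820). Fbln2, an elastic fibre component, had 116 and 112 CPM in fibrotic spots at 7 dpi and 20.3 and 15.8 CPM at 21 dpi (3.80 at 7 dpi and 1.47 at 21 dpi, difference 2.33 ± 0.32, adjusted p = 0.00697). In both genes the slices of a day stood close together and the fibrotic levels of the 2 days did not overlap. How many of all genes do so between days was not counted. Col7a1, the anchoring fibril collagen, had 73.6 and 48.0 CPM in fibrotic spots at 7 dpi and 10.1 and 7.72 CPM at 21 dpi (4.50 at 7 dpi and 2.27 at 21 dpi, difference 2.23 ± 0.52, adjusted p = 0.0499). Aldh1a3, a retinoic acid synthesising enzyme chosen after its values were seen, had 22 and 94 UMIs in the fibrotic sums and 3 and 2 in the Col1a1-free sums at 7 dpi, against 2 and 2 and 4 and 4 at 21 dpi (difference 5.69 ± 1.06, adjusted p = 0.0210). It passed the count filter only through its fibrotic sums at 7 dpi, so its call is partly set by the filter.

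The other 5 of the 8 largest differences in that direction were Myl4, Kcnj4, Slc30a3, Slitrk1 and Synpr. They were not enriched in fibrotic spots on either day: their log2 fold changes were -0.18, -1.53, -1.11, -1.03 and -1.18 at 7 dpi and lay further below 0 at 21 dpi, from -3.41 to -2.31. Kcnj4, Slitrk1 and Synpr are neuronal genes, and 7 of 10 pan-neuronal genes likewise had a less negative contrast at 7 dpi by this test. Postn had 189.5 and 251 CPM in fibrotic spots at 7 dpi and 81.2 and 79.0 CPM at 21 dpi, and Acta2 had 111 and 124 CPM in fibrotic spots at 7 dpi and 54.9 and 49.1 CPM at 21 dpi. Neither contrast differed between the days past the threshold (adjusted p = 0.290 and 0.120), and levels were not tested between days.

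Macrophage and lysosome genes had the larger contrast at 21 dpi in 15 of 19 lysosome genes and 5 of 6 SAM genes, and for Gpnmb and Trem2 the larger change between days was in the Col1a1-free spots. Gpnmb had 1491 and 1714 CPM in fibrotic spots at 7 dpi and 1996 and 1353 CPM at 21 dpi, values that overlap, and its Col1a1-free levels went from 215 and 499 CPM at 7 dpi to 43.7 and 30.5 CPM at 21 dpi (difference -3.21 ± 0.29, adjusted p = 0.00226). Trem2 had 800.3 and 749.7 CPM in fibrotic spots at 7 dpi and 672 and 692 CPM at 21 dpi, and its Col1a1-free levels went from 242 and 293 CPM at 7 dpi to 72.8 and 48.5 CPM at 21 dpi (difference -1.96 ± 0.23, adjusted p = 0.00378). In both genes the Col1a1-free values of the 2 days did not overlap, and the share of all genes for which this holds was not counted. Spp1 had 14326 and 14394 CPM in fibrotic spots at 7 dpi and 2888 and 2929 CPM at 21 dpi, with Col1a1-free levels that went from 928 and 1278 CPM at 7 dpi to 75.8 and 55.3 CPM at 21 dpi (difference -1.76 ± 0.20, adjusted p = 0.00347), so it stood lower at 21 dpi in both classes. Mmp12 had 438 and 321 CPM in fibrotic spots at 7 dpi and 599 and 180.4 CPM at 21 dpi, with Col1a1-free levels from 67.8 and 213 CPM at 7 dpi to 5.40 and 3.55 CPM at 21 dpi (difference -4.88 ± 0.68, adjusted p = 0.00764). Cd36, a scavenger receptor, had 106 and 110.2 CPM in fibrotic spots at 7 dpi and 113 and 61.8 CPM at 21 dpi (difference -3.73 ± 0.57, adjusted p = 0.00960). Its Col1a1-free levels went from 10.2 and 29.1 CPM at 7 dpi to 1.54 and 0.592 CPM at 21 dpi, which rest on 12 and 2 UMIs. Complement genes had the larger contrast at 21 dpi in 9 of 13 members, and C3, the central component of the cascade, had 20.5 and 25.5 CPM in fibrotic spots at 7 dpi and 827 and 511 CPM at 21 dpi (difference -3.87 ± 0.60, adjusted p = 0.0102).

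Reactive astrocyte markers had the larger contrast at 21 dpi in 7 of 8 members. Lcn2 had 12.1 and 24.1 CPM in fibrotic spots at 7 dpi and 971 and 688 CPM at 21 dpi (-1.29 at 7 dpi and 4.22 at 21 dpi, difference -5.51 ± 0.57, adjusted p = 0.00249), and Gfap had 507 and 592 CPM in fibrotic spots at 7 dpi and 1089 and 1219.5 CPM at 21 dpi, while its Col1a1-free levels went from 704 and 712 CPM at 7 dpi to 279 and 164 CPM at 21 dpi (difference -2.79 ± 0.27, adjusted p = 0.00236). Chil1 moved alike (-2.02 at 7 dpi and 3.72 at 21 dpi, difference -5.74 ± 0.47, adjusted p = 0.00191). The protease inhibitor A2m also had the larger contrast at 21 dpi (difference -3.76 ± 0.24, adjusted p = 8.58e-04), while its value at 7 dpi (-0.14) did not pass. Immunoglobulin transcripts of plasma cells were near 0 at 7 dpi: Igkc had 1 and 8 UMIs in the fibrotic sums at 7 dpi against 745 and 999 CPM at 21 dpi, and Jchain had 2 and 0 UMIs against 169 and 235 CPM. Of the collagens other than Col1a1, 0 of 22 had a larger contrast at 7 dpi and 1 of 22 at 21 dpi by edgeR's test of the difference. These counts lie near the shares of all genes called (0.855% and 3.24%), and they do not show that the collagen contrast was equal on both days.

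**Figure D5:**
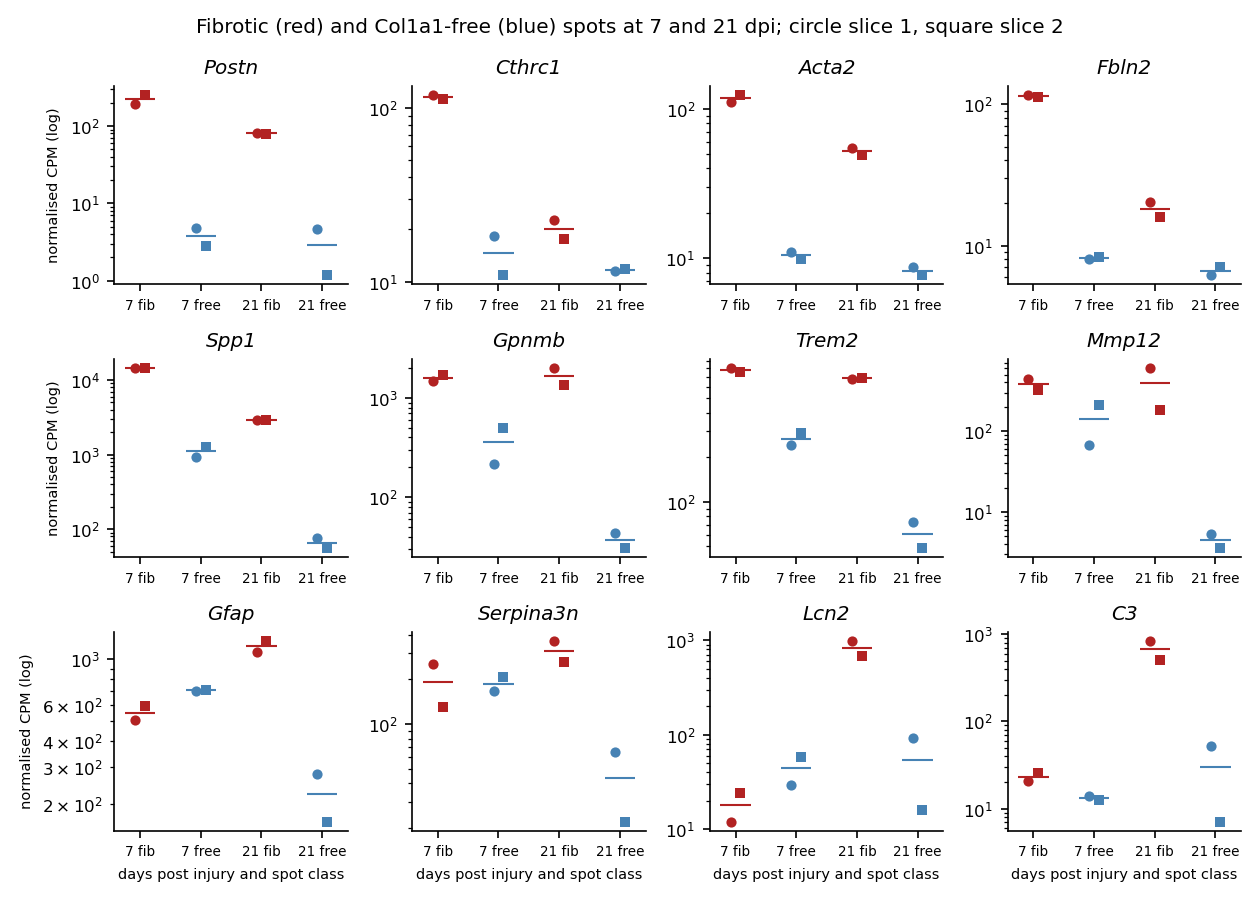
Normalised CPM (log axes) of 12 genes in fibrotic (red) and Col1a1-free (blue) sums at 7 and 21 dpi, with slice 1 as circles, slice 2 as squares and bars at class means. Cthrc1 and Fbln2 stand higher in fibrotic spots at 7 dpi, Gpnmb and Trem2 differ between the days mainly in Col1a1-free spots, and Lcn2 and C3 are high in fibrotic spots at 21 dpi.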

How the data were processed

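Visium spatial transcriptomes were measured on 4 capture areas with 2 mouse brain slices each. Per the labels, the authors processed reads with Space Ranger 2.0.0 and mm10, and the values they deposited are UMI counts for each spot and gene, with no normalization, beside spot positions. Pooling of replicates was not done. Spots over tissue were joined to neighbours, and each area gave 2 connected pieces, taken as slices. Which slice of one area is at rest and which at 2 dpi is not used here. The unit of slice thickness differs between labels and methods and enters no value.

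Counts were summed over the fibrotic and over the Col1a1-free spots of each slice, with Col1a1 left out. Slice totals at 7 dpi were 15016292 and 13512317 UMIs. Genes were tested with edgeR 4.0.16 in R 4.3.3 (TMM, filterByExpr, quasi-likelihood test, Benjamini-Hochberg threshold 0.05) with slice as a block, and the 7 against 21 dpi difference was the interaction in a fit of 8 sums. The standard error of a log2 fold change was taken as its size over the root of its F statistic. The edgeR steps were tested on simulated data. Sums and figures were made in Python 3.11.15 with numpy 2.4.6, scipy 1.17.1 and matplotlib 3.10.9. Fibrotic and Col1a1-free sums share a slice, taken as 1 mouse, which makes them pairs by design, and deviations from class means correlated with r = 0.16 over 13633 genes at 7 dpi and 0.03 over 14146 at 21 dpi. The study's methods name no such test of classes by Col1a1.

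The spot classes, gene lists and tests were chosen with earlier results of these data known. Genes were named by rule: in each direction the 12 largest changes with adjusted p under 0.05, one direction in both slices and at least 50 CPM in the higher class, the 3 members of each list with most CPM, all members of the study's 2 lists, and the 8 largest differences in each direction between days with at least 50 CPM. Aldh1a3, Abcc9, Aspg, Bglap, Ccl2, Ccl7, Ccr2, Cd3e, Cd44, Cdh5, Cfb, Ckb, Col4a2, Crabp2, Ctsk, Dpt, Foxp2, Ibsp, Igf2, Kcnj8, Ly6g, Mfsd2a, Mgp, Mki67, Mmp14, Mmp2, Mrc1, P2ry12, Pcolce2, Ppia, Smad3, Tagln, Tgfb1, Tgfb3, Tgfbr2, Timp4 and Top2a fall outside it and were picked with their values known, after those were seen.

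Alternatives were no block, minimums of 10 Col1a1 UMIs per 10000 and of 500 or 2000 UMIs per spot, thinning to 1000 UMIs, interior spots, Col1a1-free spots within 3 steps, Col1a2 in place of Col1a1, DESeq2 1.42.0 size factors or test, library size alone, no filter, the 8-sum fit, and each slice left out (fold changes at the trended dispersion, no test at 7 dpi). Edge spots alone, at least 3 Col1a1 UMIs and spots without Ibsp or Bglap were added after seeing the data. Shares carry exact binomial intervals at 95%, which cover counting error only. Positions are from GENCODE M21 on GRCm38 and promoters from RefSeq (GRCm38.p6). The area of Cthrc1(creER); R26(DTA) mice entered only the spot counts.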

Additional observations from a re-analysis of the deposited data

Results flagged for a closer look

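The results singled out here are genes named in the report whose fibrotic contrast differed between 7 and 21 dpi in edgeR's test of the difference (adjusted p under 0.05 over 14146 genes). Values are the log2 fold change at 7 dpi minus that at 21 dpi, with 2 slices a day, and day and capture area cannot be told apart.

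Matrix genes went both ways. The contrast was larger at 7 dpi for Cthrc1 (2.21), Fbln2 (2.33) and Col7a1 (2.23) and for the retinoid enzyme Aldh1a3 (5.69). Aldh1a3 passed the count filter only through its fibrotic sums at 7 dpi, so its call is partly set by the filter. The contrast was larger at 21 dpi for Fn1 (-1.23), Sparc (-1.80), Dcn (-0.97) and Mmp13 (-2.0), for the leptomeningeal marker Ptgds (-1.07), and of TGFβ genes for Tgfb1 (-2.05) and Tgfbr2 (-1.29).

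Macrophage, lysosome and lipid genes had the larger contrast at 21 dpi: Spp1 (-1.76), Gpnmb (-3.21), Trem2 (-1.96), Cd63 (-1.19) and Cd9 (-1.28) of the SAM genes, Ctsd (-1.81), Apoe (-1.83), Plin2 (-2.02) and Cd36 (-3.73) of lysosome and lipid genes, and Lyz2 (-2.52), Mmp12 (-4.88) and Cd74 (-1.41) of other myeloid genes. So did the complement genes C1qa (-1.83) and C3 (-3.87), the plasma cell transcripts Igkc (-4.67) and Jchain (-6.99), and Gfap (-2.79), Vim (-1.68), Cd44 (-2.07), Aspg (-2.05), Lcn2 (-5.51), Chil1 (-5.74) and A2m (-3.76), among them markers of reactive astrocytes.

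Neuronal genes had a less negative contrast at 7 dpi, with Snap25 (0.96), Kcnj4 (1.88), Slitrk1 (1.67) and Synpr (1.66), and the same held for Slc30a3 (1.71) and Myl4 (2.13). For Chil1 and Lcn2 the log2 fold change in the fit of 8 sums was below 0 at 7 dpi and above 0 at 21 dpi. Gfap (-0.37), A2m (-0.14) and Jchain (-1.14) were below 0 at 7 dpi too but did not pass there. Jchain rested on 2 and 0 UMIs in the fibrotic sums and 7 and 5 in the Col1a1-free sums, so its sign at 7 dpi is not settled. It passed the count filter only through its fibrotic sums at 21 dpi, so its call is partly set by the filter.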

How the results depend on the processing

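With slices 1 and 2 as a block, as both classes of a slice come from the same tissue, 3144 genes were higher and 2966 lower. Without the replicate block the counts were 2864 and 2527. Counts that moved by more than 1.5 times were those with spots thinned to 1000 UMIs (782 and 733, of 6225 genes tested), with Col1a1-free spots within 3 steps of a fibrotic spot (1417 and 1490), in tissue-edge spots (1414 and 1147) and with DESeq2 (1903 and 1664). In the first 3 of these, fewer genes were tested. Scaling by library size alone shifted the median log2 fold change of all genes from 0.01 to -0.09 and the split to 2927 higher and 3542 lower. With a minimum of 10 Col1a1 UMIs per 10000, fibrotic spots made up 5.53% of slice 1 and 31.7% of slice 2.

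Of 108 genes named at 7 dpi, 108 kept their direction and their side of the threshold with at least 500 or 2000 UMIs per spot, with at least 3 Col1a1 UMIs, without Ibsp or Bglap spots, with DESeq2 size factors and without the filter on low counts. Calls were lost for 13 genes in edge spots, 10 after thinning, 10 with DESeq2, 9 with Col1a1-free spots within 3 steps, 3 without the replicate block, 3 in the fit over 8 sums, 1 in interior spots (Aspg) and 1 with a minimum of 10 Col1a1 UMIs per 10000 (Ptgds). Other named genes could not be tested in 3 of these settings. Of the 108, 73 kept direction and side after thinning, 85 in edge spots and 90 within 3 steps, while 1, 3 and 2 turned direction. The rest did not pass the filter there. Ppia lost its call in 4 of these settings, C3 in 4, Gfap in 4, Foxp2, Pcolce2 and Timp4 in 3 each. Directions turned for A2m (0.27 after thinning, 0.78 in edge spots, -0.26 without slice 1 and 0.10 without slice 2), Myl4 (0.10 in edge spots, -0.38 without slice 1 and 0.34 without slice 2), Gfap (0.24 in edge spots), Ptgds (-0.51 in interior spots), and Cabp7 (0.21) and Mmp12 (-0.40) with Col1a1-free spots within 3 steps. The cause was not tested.

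Genes with a larger contrast at 7 dpi than at 21 dpi (121) and the converse (458) changed more. They numbered 17 and 236 without the replicate block, 0 and 49 after thinning (603 genes at an unadjusted p under 0.05), 0 and 0 in tissue-edge spots (362 at an unadjusted p under 0.05), 464 and 971 without the filter and 45 and 303 with DESeq2. Those larger at 7 dpi were 182 with a minimum of 10 Col1a1 UMIs per 10000, 76 with at least 3 Col1a1 UMIs and 243 without Ibsp or Bglap spots. Without each slice in turn, the counts ran from 0 to 185 and from 55 to 593, and the 0, without slice 2 at 7 dpi, had 2023 genes at an unadjusted p under 0.05. Of the 16 genes named for the largest differences between days, 7 fell short of the threshold without the replicate block, 12 after thinning, 16 in edge spots, and 10, 12 and 5 without slice 1 at 7 dpi, slice 2 at 7 dpi and slice 2 at 21 dpi.

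The 2 slices leave 1 residual degree of freedom, so the size of an adjusted p rests on the spread edgeR borrows across genes. For Col3a1 the adjusted p ranged from 0 to 5.62e-06 over the alternatives. The shallow fibrotic sum of slice 1, with 846868 UMIs, limits what can be seen of rare transcripts such as lymphocyte markers, and spots cannot separate cell types.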
